A study of Mus musculus with 23 samples.

Results

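Cholesterol is made from acetyl-CoA by a long chain of enzymes, taken up in lipoproteins, moved between membranes by carrier proteins and exported to acceptors outside the cell. The genes described here are 33 cholesterol genes, listed by name from the pathway: 19 encode synthesis enzymes, 5 encode regulators of the SREBP transcription factors and 9 encode proteins of sterol transport, storage or oxysterol sensing. All 33 were listed among the 35385 gene symbols of the deposited tables. Cells of the oligodendrocyte lineage wrap axons in myelin, a membrane rich in cholesterol, and in the brain most of that cholesterol is made locally because lipoprotein cholesterol of the blood hardly enters. The enzyme genes are known as targets of SREBP, which the escort protein SCAP carries to the Golgi for activation when membrane sterol is low and which INSIG proteins hold back when sterol is high. The nuclear receptors of the LXR family respond to oxysterols and are known to raise the export genes.

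The 23 libraries hold poly(A) RNA of oligodendrocyte progenitor cells (OPCs) and oligodendrocytes (OLs) of the mouse. The OPCs were grown from epiblast stem cells of the lines EpiSC5 and 129O1, from mice of strains 129SvEv and 129S1/SvImJ, with EpiSC5 named for replicate 1 and 129O1 for replicate 2 of the OPCs. The lettered columns of the deposited tables match no replicate number, so the line behind each library is not known here, and libraries of a group may differ in line and strain. One experiment held OPCs and O1-positive OLs, each sorted on magnetic beads, with 3 libraries of each and no genetic change named in the labels. In the other, with 17 libraries, OPCs had received a lentiviral CRISPR vector with a non-targeting guide (control) or with SOX6 guide 1 or guide 2, and had been kept for 96 hours in puromycin (500 ng/mL), so control cells carried the vector and the selection too. These cells were lysed after 60 hours, either in OPC growth medium (3 control, 2 guide 1 and 3 guide 2 libraries) or in a medium that permits differentiation but lacks the thyroid hormone T3 (3 libraries for each guide). The latter are called OLs after their label, although they were not sorted and may hold cells at several stages. The labels name no clone, and give 1 starting batch of OPCs for control and targeted cells. Whether the libraries of a group stem from separate cultures is not in the labels, and p-values therefore cover only the spread among these libraries, which may be technical or, where lines differ, also hold that difference. In RNA from many cells, fewer cells of a type and less RNA per cell cannot be told apart.

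Total estimated counts ran from 13967438 to 16958611 per OPC library and from 13124580 to 18551822 per OL library. Sox6 RNA in CPM (counts scaled to a common library total) was 165, 201 and 234 in the OPC controls, against 417, 437 and 387 in the OL controls, and every targeted library was lower than all controls of its stage (log2 change -1.32 in OPCs and -0.81 in OLs, adjusted p = 0.00147 and 0.009502). In the authors' deposited DESeq2 results, Sox6 had an adjusted p of 3.01e-05 in OPCs but 0.0593 in OLs, above the threshold of 0.05. Of 6 myelin markers 5 rose from sorted OPCs to sorted OLs, and the myelin gene Mog stayed below 1 TPM in both. Of 4 progenitor markers all fell in that comparison, yet Pdgfra, the receptor used to purify the starting OPCs, was at 21.9 ± 3.66 CPM in OPC controls and 108 ± 7.66 CPM in OL controls (SD, n = 3 each), which goes against its use as an OPC marker in those cultures. The other 3 progenitor markers fell there too, and the summed level of the 4 went from between 2001 and 2169 CPM in OPC controls to between 1643 and 1731 CPM in OL controls. Microglia markers (5 genes) were below 1 CPM or TPM in every group. OL guide 1 library B stood apart: its ratio to the other libraries of its group fell with transcript length (Spearman rho -0.54 over 10546 genes, against 0.44 and 0.50 for the others of the group), and it held 95.8 CPM of Msmo1, a methylsterol oxidase, where the others of its group held 18.6 and 14.5 CPM. Results of targeted OLs are therefore given with and without it. Control OPC libraries A (rho -0.35) and C (0.36) also differed from each other by length.

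On the TPM scale, which divides by transcript length and so allows genes to be compared, an early enzyme was the most abundant member. In sorted OPCs Hmgcs1, which makes HMG-CoA, stood at 715 ± 27.2 TPM (SD, n = 3), above Srebf2, the main SREBP gene of sterol synthesis, at 231 ± 0.279 TPM. Idi1, the isomerase of the isoprenoid units, followed at 157 ± 11.4 TPM, then Cyp51, the lanosterol demethylase, at 136 ± 9.97 TPM and Dhcr7, a late sterol reductase, at 129 ± 4.56 TPM. The libraries of Idi1 and Cyp51 overlapped, as did those of Cyp51 and Dhcr7. At the other end, Sqle, the squalene epoxidase, was at 5.46 ± 0.794 TPM, the LXR gene Nr1h3 at 1.202 ± 1.22 TPM, and the exporter Abcg1 at 0.0611 ± 0.0266 TPM. Mylip, whose product degrades lipoprotein receptors, was listed at 0 in all 6 sorted libraries. The deposited counts and TPM of a gene together give the transcript length that the authors' quantification used. For Insig1, Insig2, Ebp, Hsd17b7 and Sc5d this was under 50% of the longest annotated coding transcript (553 against 2697 bases for Insig1, for example). Values of these 5 genes therefore need not describe the full-length mRNA. For Sqle the length exceeded the longest annotated coding transcript (3709 against 2758 bases), so its values need not describe the coding mRNA alone.

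The 5 enzyme genes that were higher in SOX6-targeted OLs are shown by the 300 bases around their RefSeq gene starts (250 before and 50 after, build GRCm38.p6), because all 5 passed the test there and are textbook SREBP targets. Capitals mark exact matches to a sterol element form, TCACNCCAC, and to the CCAAT box, each searched on both strands. The sequences run 5′ to 3′ on the strand of the gene, and the reverse complement of CCAAT reads ATTGG. Hmgcs1 lies at chr13:119690101-119690400 (plus strand), Mvd at chr8:122443373-122443672 (minus), Cyp51 at chr5:4104648-4104947 (minus), Nsdhl at chrX:72918271-72918570 (plus), and Dhcr7, which has 3 starts in the table, is shown at chr7:143829964-143830263 (plus), its only window with a CCAAT box.
Hmgcs1: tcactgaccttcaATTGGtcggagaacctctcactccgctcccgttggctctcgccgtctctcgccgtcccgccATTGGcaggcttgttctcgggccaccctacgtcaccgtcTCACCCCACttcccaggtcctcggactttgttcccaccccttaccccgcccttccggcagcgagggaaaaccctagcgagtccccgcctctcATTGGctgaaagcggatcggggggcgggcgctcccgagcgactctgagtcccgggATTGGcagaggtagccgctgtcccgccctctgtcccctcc
Mvd: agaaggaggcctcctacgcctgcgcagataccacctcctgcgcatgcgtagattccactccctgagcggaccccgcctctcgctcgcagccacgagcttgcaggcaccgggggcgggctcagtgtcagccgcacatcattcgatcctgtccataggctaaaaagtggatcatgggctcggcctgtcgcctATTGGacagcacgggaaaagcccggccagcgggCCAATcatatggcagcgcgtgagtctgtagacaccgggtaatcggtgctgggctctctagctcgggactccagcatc
Cyp51: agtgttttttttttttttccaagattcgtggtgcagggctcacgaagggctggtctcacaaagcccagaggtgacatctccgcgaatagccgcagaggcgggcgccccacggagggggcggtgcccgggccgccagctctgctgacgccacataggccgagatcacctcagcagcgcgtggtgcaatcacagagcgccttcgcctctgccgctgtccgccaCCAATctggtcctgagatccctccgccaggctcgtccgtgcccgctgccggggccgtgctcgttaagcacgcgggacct
Nsdhl: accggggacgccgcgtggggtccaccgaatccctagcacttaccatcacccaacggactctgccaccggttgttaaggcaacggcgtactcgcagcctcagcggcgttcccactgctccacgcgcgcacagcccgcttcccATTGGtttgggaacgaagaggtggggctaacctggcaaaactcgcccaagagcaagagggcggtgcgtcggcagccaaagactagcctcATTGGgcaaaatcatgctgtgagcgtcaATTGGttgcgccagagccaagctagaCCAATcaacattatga
Dhcr7: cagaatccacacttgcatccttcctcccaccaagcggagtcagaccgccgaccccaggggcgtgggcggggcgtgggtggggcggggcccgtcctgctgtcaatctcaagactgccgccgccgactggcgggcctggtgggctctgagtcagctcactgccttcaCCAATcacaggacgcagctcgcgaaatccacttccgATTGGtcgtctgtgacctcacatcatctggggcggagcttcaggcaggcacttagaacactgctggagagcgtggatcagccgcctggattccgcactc
Among the 27 members in the table, an exact match to TCACNCCAC was found in Hmgcs1 alone, starting 137 bases before the gene start (1.436% of genes). Sterol elements that differ from these letters were not searched for, so the other members may hold such sites. CCAAT was found in a window of 22 of the 27 members and of 15 of their 16 enzymes, against 41.058% of the 27025 genes in the table. The GC box GGGCGG, a site of the SP1 family, was found in 23 of the 27 members against 38.202% of genes. The E-box form TCACGTGA was found in none of the 27 (1.125% of genes). These matches are descriptions of the letters in these windows.

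Sorted OLs held more RNA of most synthesis enzymes than sorted OPCs and less of the SREBP regulators Srebf1 and Scap. They also held more of the exporter gene Abca1, the storage gene Soat1 and the lysosomal genes Npc2 and Npc1. By limma on log2(TPM + 1), with an adjusted p below 0.05, 17 of the 30 members that reached 1 TPM in 3 or more libraries were higher in OLs and 5 were lower, in a comparison where 61.0% of all 11902 genes tested were called. The median change was 0.42 over the members and -0.14 over all genes. In 17 members every OL library was above every OPC library (29.5% of all genes tested) and in 8 every one was below (38.0%). Mylip, Abcg1 and Nr1h3 were not tested. Enzymes were called higher in 13 of 19 (26.6% of all genes were called higher) and lower in 2 (34.4% of all genes), while regulators were called higher in 0 of 5 and lower in 2.

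In the mevalonate steps 4 of 5 enzymes rose. Hmgcs1 was at 683, 732 and 729 TPM in the 3 OPC libraries and at 1183, 1331 and 1254 TPM in the 3 OL libraries. Mvd, the decarboxylase that ends the mevalonate steps, was at 81.1, 79.97 and 77.8 TPM in OPCs and 138, 145 and 130.2 TPM in OLs. Acat2, the thiolase that feeds the pathway, was at 14.2, 16.8 and 18.4 TPM in OPCs and 35.4, 35.8 and 40.9 TPM in OLs. All OL libraries lay above all OPC libraries for these 3 genes, with log2 changes of 0.81 (SE 0.063, adjusted p = 3.64e-05) for Hmgcs1, 0.78 (SE 0.0642, adjusted p = 4.80e-05) for Mvd and 1.14 (SE 0.121, adjusted p = 0.000167) for Acat2. Pmvk, a kinase of the same steps, was low (3.73 ± 0.201 TPM in OLs, SD, n = 3) and rose by 0.72, and the kinase gene Mvk did not pass the test (-0.17, adjusted p = 0.156). All 3 isoprenoid enzymes rose: Idi1 by 0.34, Fdps, which makes farnesyl diphosphate, by 0.41, and Ggps1, which branches off to protein prenylation, by 0.55.

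Around squalene 2 of 3 enzymes rose and Sqle fell. Lss, which closes the sterol ring to lanosterol, was at 85.03, 77.9 and 74.7 TPM in OPCs and 141, 177 and 186 TPM in OLs, with every OL library higher (log2 change 1.07, SE 0.114, adjusted p = 0.000178). Fdft1, squalene synthase, rose by 0.43. Sqle fell by 0.73 on the log2 scale from a low level (adjusted p = 0.0339), and its call was lost in 7 of 10 alternatives (no filter, median centring, without any single OPC library, without OL library B or C, adjusted p up to 0.107). Fdps lost its call without OPC library A or B. Of the 8 enzymes from lanosterol to cholesterol, 4 rose and 1 fell. Hsd17b7, a sterol ketone reductase, was at 5.23, 4.38 and 3.51 TPM in OPCs and 18.95, 15.6 and 16.4 TPM in OLs (log2 change 1.75, SE 0.166, adjusted p = 9.65e-05). Tm7sf2, a sterol reductase, moved the other way, from 22.5, 20.6 and 18.5 TPM in OPCs to 6.11, 10.1 and 3.802 TPM in OLs, again without overlap (log2 change -1.57, SE 0.289, adjusted p = 0.00262). Ebp, the sterol isomerase, was below 1 TPM in every OPC library and reached 8.14 ± 1.77 TPM in OLs (SD, n = 3; log2 change 2.57, adjusted p = 6.98e-05). Sc5d, a sterol desaturase, rose by 0.76 and Cyp51 by 0.39. Dhcr7 (0.09, 95% interval -0.09 to 0.28), Nsdhl, a sterol dehydrogenase (-0.12, -0.26 to 0.02), and Msmo1 (0.47, -0.09 to 1.03) did not pass the test.

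**Figure D1:**
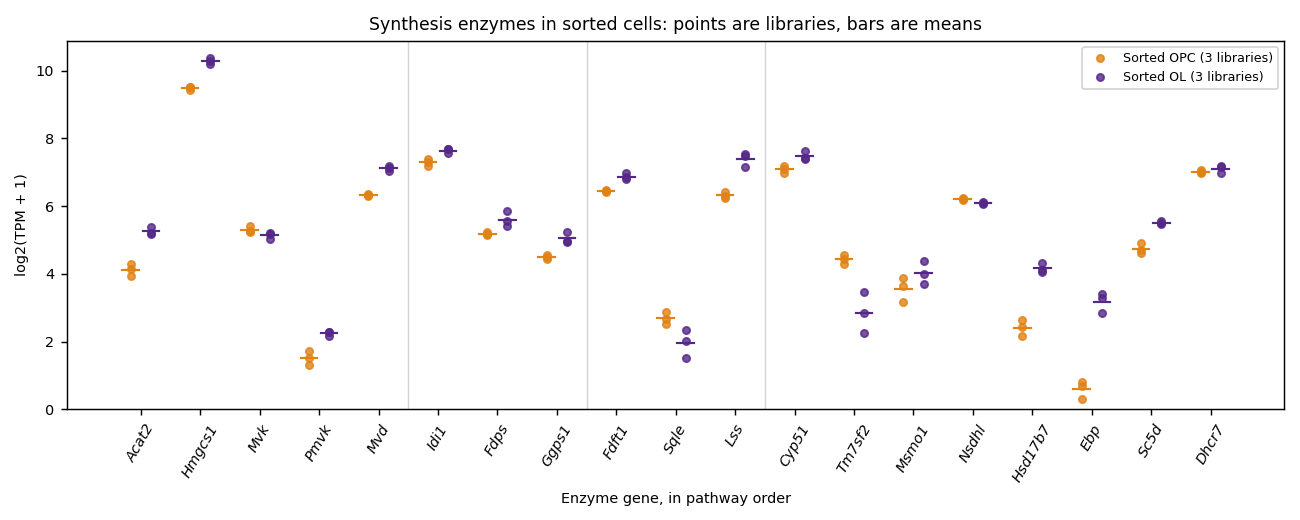
Level of the 19 synthesis enzymes as log2(TPM + 1) in 3 sorted OPC and 3 sorted OL libraries, in pathway order with grey lines between the mevalonate, isoprenoid, squalene and sterol steps (points are libraries, bars are means). Most enzymes sit higher in OLs, Hmgcs1 is the highest in both, and Mvk, Sqle, Tm7sf2 and Nsdhl have every OL library below every OPC library, of which Sqle and Tm7sf2 passed the test.

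The regulators did not rise with the enzymes. Srebf1 was at 107, 112 and 116 TPM in sorted OPCs and 52.5, 64.05 and 82.7 TPM in sorted OLs, and Scap at 69.4, 68.2 and 62.99 and 47.3, 44.3 and 45.2 TPM. Every OL library was below every OPC library for both (log2 changes -0.77, SE 0.154, and -0.54, SE 0.0724, adjusted p = 0.00397 and 0.000539). Srebf2 differed little, at 231 TPM in each OPC library and 213, 223 and 219 TPM in OLs, and did not pass the test (-0.08, 95% interval -0.20 to 0.04). Insig1 (0.37) and Insig2 (0.56) did not pass it either, nor did the LXR gene Nr1h2 (-0.07).

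Of the 6 transport genes tested, 4 rose and 1 fell in sorted OLs. Soat1, which esterifies cholesterol for storage, was at 18.4, 21.2 and 27.4 TPM in OPCs and 48.2, 49.8 and 56.7 TPM in OLs (log2 change 1.18, SE 0.1505, adjusted p = 0.000419). Npc2, which hands cholesterol to NPC1 in the lysosome, was at 50.5, 51.96 and 66.4 TPM and 102, 99.9 and 105 TPM (log2 change 0.86, SE 0.11, adjusted p = 0.000425). For both, the groups did not overlap. The exporter Abca1 rose from 1.51 ± 0.484 to 6.44 ± 1.52 TPM (SD, n = 3 each; log2 change 1.56), and Npc1 rose by 0.40, a call that was lost in 6 of 10 alternatives (no filter, without OPC library A or B, without any single OL library, adjusted p up to 0.113). Stard4, a cytosolic sterol carrier, fell from 60.8 ± 5.91 to 35.4 ± 4.44 TPM (SD, n = 3 each; log2 change -0.77, adjusted p = 0.00105). Among 31 further sterol genes of synthesis control, transport and turnover, 24 were tested, 9 rose and 8 fell, with Apoe, the main lipoprotein carrier of the brain, at 3.99, the sterol transfer gene Gramd1b at 3.40 and the transporter Abca2 at 2.88. All 4 markers of dividing cells fell in the same comparison and the summed level of 7 astrocyte markers went from between 407 and 430.2 TPM in OPCs to between 1347 and 1805 TPM in OLs (3 higher, 1 lower), and their part in these results was not tested.

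Control OLs against control OPCs gave a second view of differentiation in other libraries, without sorting. Enzyme genes again rose more often than they fell, and Abca1 showed the largest change of any member. Of 30 members tested by edgeR, 12 rose and 5 fell where 53.7% of 12868 genes were called, with a median of 0.21 over the members and 0.02 over all genes. Enzymes were called higher in 8 of 19 (26.8% of all genes) and lower in 1 (26.9% of all genes), regulators lower in 3 of 5, and transport genes higher in 4 and lower in 1 of 6. In CPM, all OL controls were above all OPC controls in 13 members (31.0% of all genes tested) and below them in 5 (31.6%). Mylip, Abcg1 and Nr1h3 were too low to be tested, here and in targeted OPCs. OPC and OL counts come from separate deposited tables, so stage and table cannot be told apart.

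Hmgcs1 was at 1252, 1043 and 994 CPM in the control OPC libraries and 2165, 2141 and 2107 CPM in the control OL libraries (log2 change 0.98, SE 0.0801, adjusted p = 3.44e-05). Mvd was at 81.1, 67.1 and 58.5 CPM and 122, 127 and 123 CPM (log2 change 0.87, SE 0.106). Lss was at 149, 133 and 130.2 CPM and 284, 277 and 289 CPM (log2 change 1.07, SE 0.0586). For all 3 the OL libraries lay close together and above every OPC library. Fdft1 went from 167, 129 and 129 to 220.2, 219.9 and 204 CPM (0.62, SE 0.1002) and Nsdhl from 78.2, 65.2 and 62.8 to 104, 109.6 and 98.2 CPM (0.62, SE 0.0897), also without overlap. Sc5d went from 16.4, 15.99 and 23.4 to 27.6, 28.1 and 23.6 CPM (0.53, SE 0.169, adjusted p = 0.0311), and its call was lost in 5 of 12 alternatives (a length offset, OPC control A or B left out, OL control A or B left out). Its lowest OL library lay just above its highest OPC library. Fdps (0.53) and Cyp51 (0.44) rose too. Hsd17b7, under 5 CPM in every control library, was lower in OLs (-1.04, lost without OL control C). Dhcr7 (0.05, 95% interval -0.12 to 0.23) and Idi1 (-0.03, -0.25 to 0.19) did not pass the test. Acat2, Mvk, Pmvk, Ggps1, Sqle, Tm7sf2, Msmo1, Ebp, Insig1, Insig2 and Nr1h2 did not pass it either.

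The 3 OPC controls held 14.8, 25.7 and 22.7 CPM of Abca1 and the 3 OL controls 142, 140.2 and 142 CPM, a fitted 6.77-fold rise (log2 change 2.76, SE 0.178, adjusted p = 1.01e-05). Soat1 was at 74.8, 80.7 and 76.6 CPM and 149.7, 140.1 and 150.2 CPM (0.94, SE 0.0595, adjusted p = 9.26e-06). Neither gene had overlapping groups. Npc2 rose by 0.46 and Npc1 by 0.26, the latter call lost when any of the 3 OL controls was left out, and Stard4 changed by -0.37 (adjusted p = 0.00315). The regulators Srebf1 (-0.43), Scap (-0.30) and Srebf2 (-0.17) fell, with all OL controls below all OPC controls in CPM. In TPM the groups overlapped for each of them. Srebf2, for example, was at 213, 229 and 256 TPM in OPC controls and 223, 222 and 232 TPM in OL controls.

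Set side by side, 30 members were tested in both the sorted and the unsorted comparison, which share no library. Of these, 11 were higher in OLs in both (Hmgcs1, Mvd, Fdps, Fdft1, Lss, Cyp51, Sc5d, Abca1, Npc1, Npc2 and Soat1) and 3 lower in both (Srebf1, Scap and Stard4). The share of all genes called the same way in both was not counted. Called higher were 26.6% of all genes in the sorted and 26.8% in the unsorted comparison, and called lower were 34.4% and 26.9%. Whether the counts in both set the members apart was not tested. Hsd17b7 was called in opposite directions. Acat2, Pmvk, Idi1, Ggps1, Sqle, Tm7sf2 and Ebp were called in the sorted cells alone, and Nsdhl and Srebf2 in the unsorted controls alone, and whether the 2 comparisons differ for these genes was not tested. Of the 31 further sterol genes, 25 were tested in the unsorted controls, 10 rose and 9 fell, among them Apoe (5.34), the exporter gene Abcg4 (1.86, about 1 CPM or less), the lipoprotein receptor gene Scarb1 (-1.71) and Gramd1c (1.37). The 4 dividing-cell markers fell here as well, and 6 of 7 astrocyte markers rose (summed level 776 to 866 CPM in OPC controls, 2283 to 2315 CPM in OL controls). Their part in these differences was not tested.

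**Figure D2:**
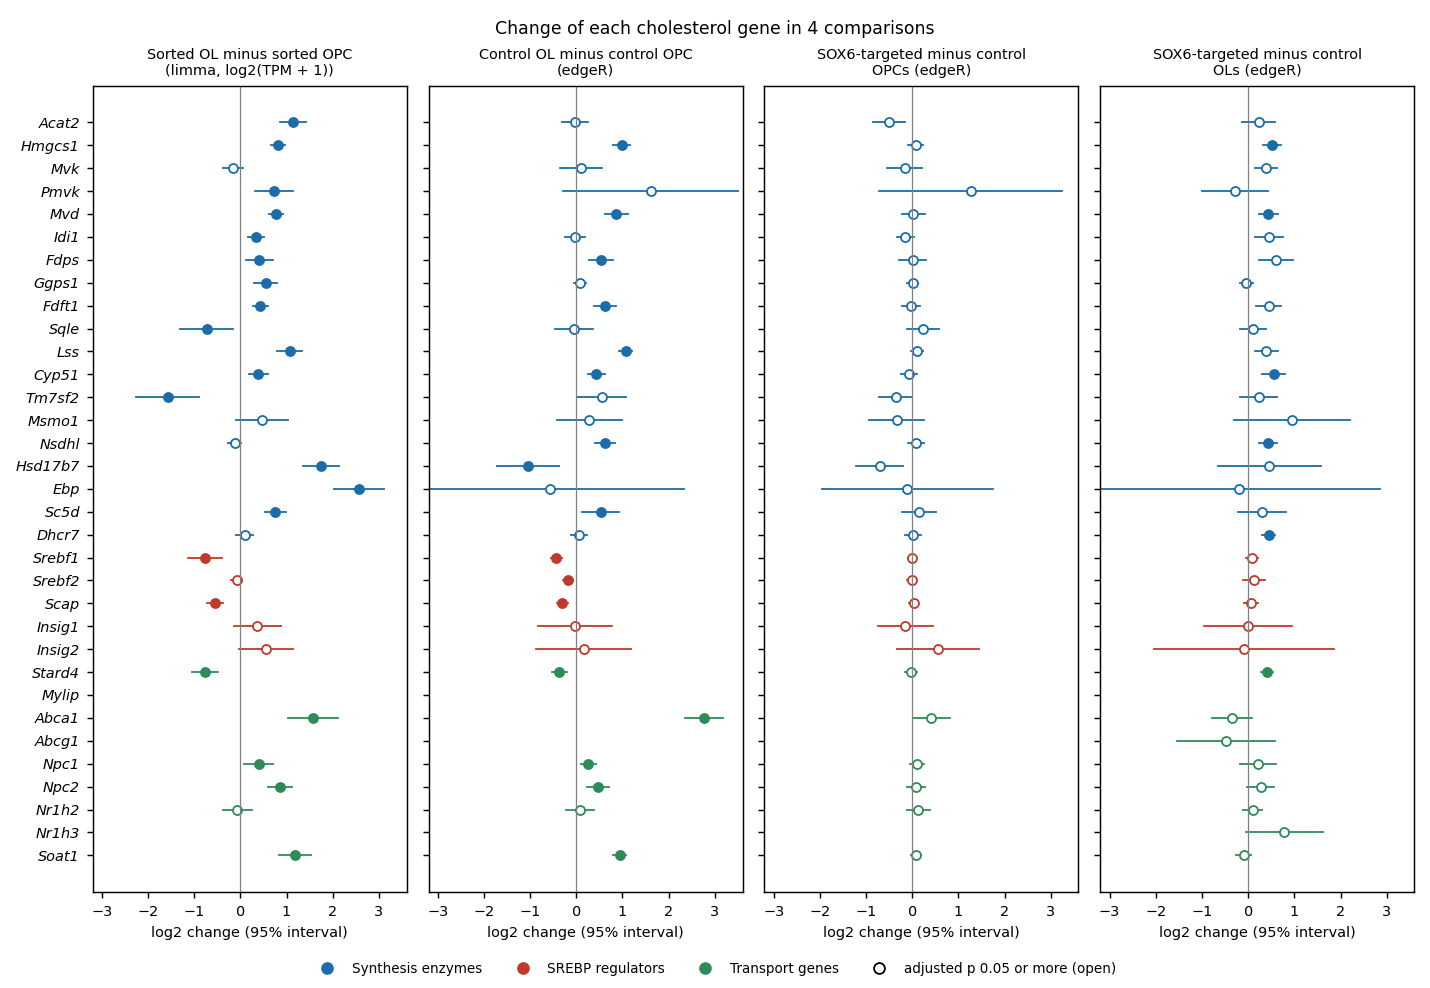
Log2 change of each of the 33 genes in 4 comparisons, with 95% intervals (lines, cut at the panel edge for Ebp); filled points have an adjusted p below 0.05, and genes with no point were not tested. In targeted OPCs (the third panel) no point is filled, and in targeted OLs (the fourth panel) 5 enzymes and Stard4 are filled, all to the right of 0.

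In SOX6-targeted OPCs none of the 30 members tested was called by edgeR, where 3.59% of 13358 genes were called. This count of 0 is near the share over all genes and does not set the members apart. The lowest adjusted p was 0.138, for Acat2, 3 members had an unadjusted p below 0.05 (Acat2, Hsd17b7 and Abca1), and DESeq2, every other alternative and each guide alone (2.78% of all genes called for guide 1, 2.04% for guide 2) also called 0. Hmgcs1 was at 1252, 1043 and 994 CPM in controls, 1102 and 1143 CPM with guide 1 and 1178, 1193 and 1081 CPM with guide 2, and the groups overlapped (log2 change 0.07, 95% interval -0.08 to 0.23). Cyp51 (-0.07, -0.24 to 0.10), Dhcr7 (0.02, -0.16 to 0.20), Mvd (0.02, -0.22 to 0.27), Nsdhl (0.07, -0.10 to 0.25) and Stard4 (-0.02, -0.15 to 0.11) had intervals that include 0. The regulators were as close, with Srebf1 at -0.0047 (-0.10 to 0.09) and Srebf2 at -0.0037 (-0.10 to 0.10). Acat2 was at 18.9, 18.7 and 15.4 CPM in controls and between 9.62 and 16.8 CPM in the 5 targeted libraries (-0.50, -0.86 to -0.15). The other members tested lay between -0.71 (Hsd17b7) and 1.27 (Pmvk, under 3 CPM in every OPC library). In 2 members, Tm7sf2 and Hsd17b7, all targeted libraries lay below all controls, as in 6.24% of all genes tested, and both are low (under 8 CPM). Of the 24 further sterol genes tested, the lipoprotein receptor gene Lrp1 fell (-1.26, adjusted p = 0.00655) and Apoe rose (0.43, adjusted p = 0.0447). The authors' deposited table lists 30 members for OPCs, and 0 of them had an adjusted p below 0.05, where the share of all genes was not counted.

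In OLs, targeting of SOX6 was followed by higher levels of enzyme genes along the pathway, from Hmgcs1 at its start to Dhcr7 near its end, and of the sterol carrier gene Stard4. Of 32 members tested, 6 were higher and 0 lower, where 6.5% of 13447 genes were called (3.13% higher). The 6 changes lay between 1.33-fold and 1.46-fold. Enzymes had 5 of 19 called with a median log2 change of 0.43, regulators 0 of 5 with a median of 0.06, and transport genes 1 of 8 with a median of 0.16. With guide 1 alone 9 of 19 enzymes were called (median 0.54, 4.92% of all genes called). With guide 2 alone 1 was called (median 0.31, 4.44% of all genes called). In 10 members, 9 of them enzymes, every one of the 6 targeted libraries was above all 3 controls in CPM, as in 8.8% of all genes tested. In TPM this did not hold for Lss, Fdft1, Fdps, Dhcr7 and Stard4. Lss stood at 44.7 TPM in guide 1 library B, against 83.6, 84.4 and 98.2 TPM in controls. In guide 2 library B, Fdft1 (89.1 TPM) and Fdps (33.42 TPM) lay just below their highest controls (89.8 and 33.47 TPM).

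Hmgcs1 was at 2165, 2141 and 2107 CPM in control OLs, 2889, 3828 and 3138 CPM with guide 1 and 3005, 2660.2 and 2920.1 CPM with guide 2. The controls lay within a narrow range, all targeted libraries were above them and guide 1 library B was the highest. The log2 change over both guides was 0.52 (SE 0.08899, adjusted p = 0.00941) and 0.45 without guide 1 library B. Mvd was at 122, 127 and 123 CPM in controls, 172, 219.7 and 169 CPM with guide 1 and 145, 153 and 158 CPM with guide 2 (log2 change 0.44, SE 0.0918, adjusted p = 0.0244, and 0.37 without library B). Again library B was highest and no targeted library reached down to the controls.

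Cyp51 was at 358, 365 and 349 CPM in controls, 508, 701 and 524 CPM with guide 1 and 505, 440.4 and 483 CPM with guide 2. Its log2 change was 0.55 (SE 0.106, adjusted p = 0.0169), and 0.46 without library B, which was the highest library. Nsdhl was at 104, 109.6 and 98.2 CPM in controls, 139.5, 171 and 143 CPM with guide 1 and 124, 131 and 135 CPM with guide 2 (log2 change 0.43, SE 0.0838, adjusted p = 0.0185, and 0.37 without library B). The same order was seen, controls lowest and library B highest. Dhcr7 was at 160.3, 165 and 149 CPM in controls, 222, 220.3 and 227 CPM with guide 1 and 203, 213 and 207 CPM with guide 2 (log2 change 0.44, SE 0.0624, adjusted p = 0.00367, and 0.44 without library B). Here library B was the lowest of its guide and still above all controls in CPM. In TPM it lay within the range of the controls (84.1 against 80.7 to 90.5 TPM).

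Stard4 was at 126, 121 and 122 CPM in control OLs, 165, 166 and 178 CPM with guide 1 and 162, 158 and 155 CPM with guide 2 (log2 change 0.41, SE 0.0609, adjusted p = 0.00464, and 0.41 without library B). In CPM all 6 targeted libraries were above the controls. They were also within the range of the OPC libraries of the experiment, which ran from 151.3 to 178.6 CPM. On the TPM scale guide 1 library B stood at 30.2, below the controls at 34.3, 33.3 and 32.9, and the other targeted libraries stayed above them. Dhcr7 and Stard4 were called in all 18 alternatives. Hmgcs1 was not called in 4 of them, Cyp51 and Nsdhl in 6 each and Mvd in 7, and without OL control A, B or C the count of members called was 2. Guide 1 alone called 10 members (4.92% of all genes) and guide 2 alone 2, Dhcr7 and Stard4 (4.44% of all genes). Hmgcs1, Mvd, Cyp51 and Nsdhl were not called with guide 2 alone. Guide 2 minus guide 1 called 0 members and 0.0% of genes by edgeR, with 10 members at an unadjusted p below 0.05.

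**Figure D3:**
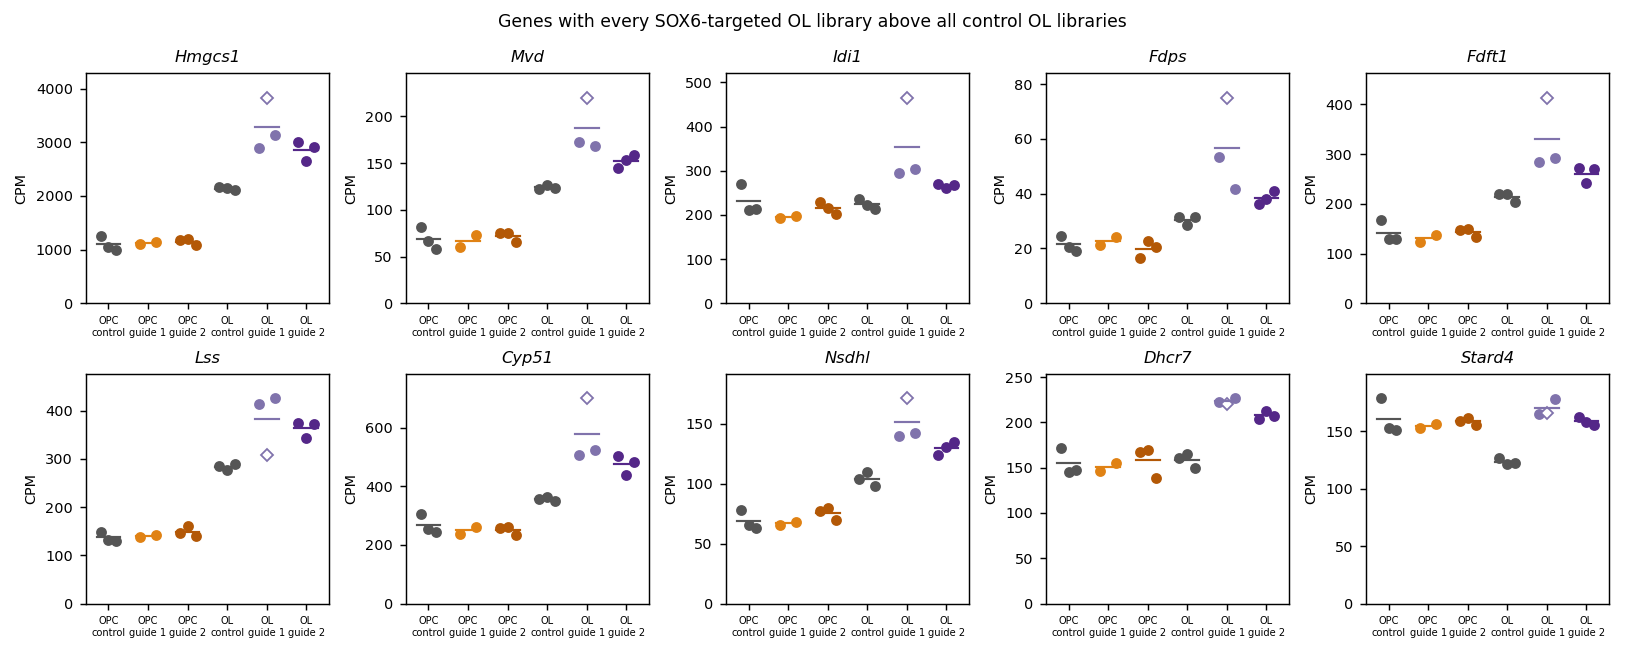
CPM of the 10 genes in which all targeted OL libraries lay above all control OL libraries, in the 17 libraries of the SOX6 experiment (points are libraries, bars are group means, the open diamond is OL guide 1 library B). Targeted and control OPCs overlap in every panel, and library B is the highest OL library for Hmgcs1, Mvd, Idi1, Fdps, Fdft1, Cyp51 and Nsdhl but the lowest targeted one for Lss.

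Of the 19 enzymes, 16 had a positive fitted change and 3 a negative one. Fdps (0.61, adjusted p = 0.0662), Idi1 (0.45, 0.101), Fdft1 (0.45, 0.0649), Lss (0.39, 0.0664) and Mvk (0.38, 0.0715) had positive changes that did not pass the threshold over all libraries. Without guide 1 library B all 5 were called, and the count of members was 13 higher and 1 lower of 32, where 16.9% of 13810 genes were called (8.32% higher, 8.6% lower). The 13 were Hmgcs1, Mvk, Mvd, Idi1, Fdps, Fdft1, Lss, Cyp51, Nsdhl, Dhcr7, Srebf2, Stard4 and Npc1. Msmo1 had the largest fitted change (0.95, 95% interval -0.30 to 2.20), which was 0.26 without library B. Sqle (0.11, 95% interval -0.18 to 0.40), Ggps1 (-0.04, -0.18 to 0.10) and Acat2 (0.23, -0.12 to 0.57) did not pass the test in either fit, and neither did Pmvk, Tm7sf2, Msmo1, Hsd17b7, Ebp and Sc5d. The authors' deposited table lists 31 members for OLs, and 7 of them had an adjusted p below 0.05, all higher in targeted cells. They were the 6 called over all libraries and Npc1. The share of all genes below 0.05 in the authors' results was not counted.

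The regulators differed little between targeted and control OLs. Srebf1 was at 351, 378 and 366 CPM in controls, 373, 409 and 392.4 CPM with guide 1 and 397, 376 and 381 CPM with guide 2, and the groups overlapped (log2 change 0.09, 95% interval -0.05 to 0.22). Srebf2 was at 694, 724 and 742 CPM in controls, 791, 594 and 847 CPM with guide 1 and 826, 835 and 824 CPM with guide 2. Guide 1 library B alone fell below the controls, and the log2 change was 0.12 (95% interval -0.12 to 0.37) with it and 0.18, a called rise, without it. Scap (0.06, -0.09 to 0.22) did not pass the test, and Insig1 and Insig2 were under 7 CPM in every OL library, with intervals too wide to read (-0.97 to 0.95 for Insig1).

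Among the transport genes Abca1 was at 142, 140.2 and 142 CPM in control OLs, 110.5, 55.8 and 110.2 CPM with guide 1 and 145, 126 and 134 CPM with guide 2. Its change was -0.35 (95% interval -0.78 to 0.09, adjusted p = 0.3997) over all libraries and -0.22 without library B, where it was called lower. Npc1 was at 199.8, 201 and 194 CPM in controls, 239, 138 and 257 CPM with guide 1 and 261, 250.4 and 249 CPM with guide 2. All targeted libraries but library B were above the controls, and the change was 0.22 (adjusted p = 0.582) with that library and 0.33, a called rise, without it. Npc2 (0.27), Soat1 (-0.10) and Nr1h2, the more abundant LXR gene (0.09), did not pass the test in either fit. Nr1h3 and Abcg1 were under 2 CPM in every library, and Mylip was not tested. Of 25 further sterol genes tested, 2 rose, Cyp46a1, whose enzyme turns cholesterol into an oxysterol (0.95, adjusted p = 0.00136), and Erlin2, a gene of sterol-dependent protein turnover (0.26, adjusted p = 0.0419), and 0 fell.

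**Figure D4:**
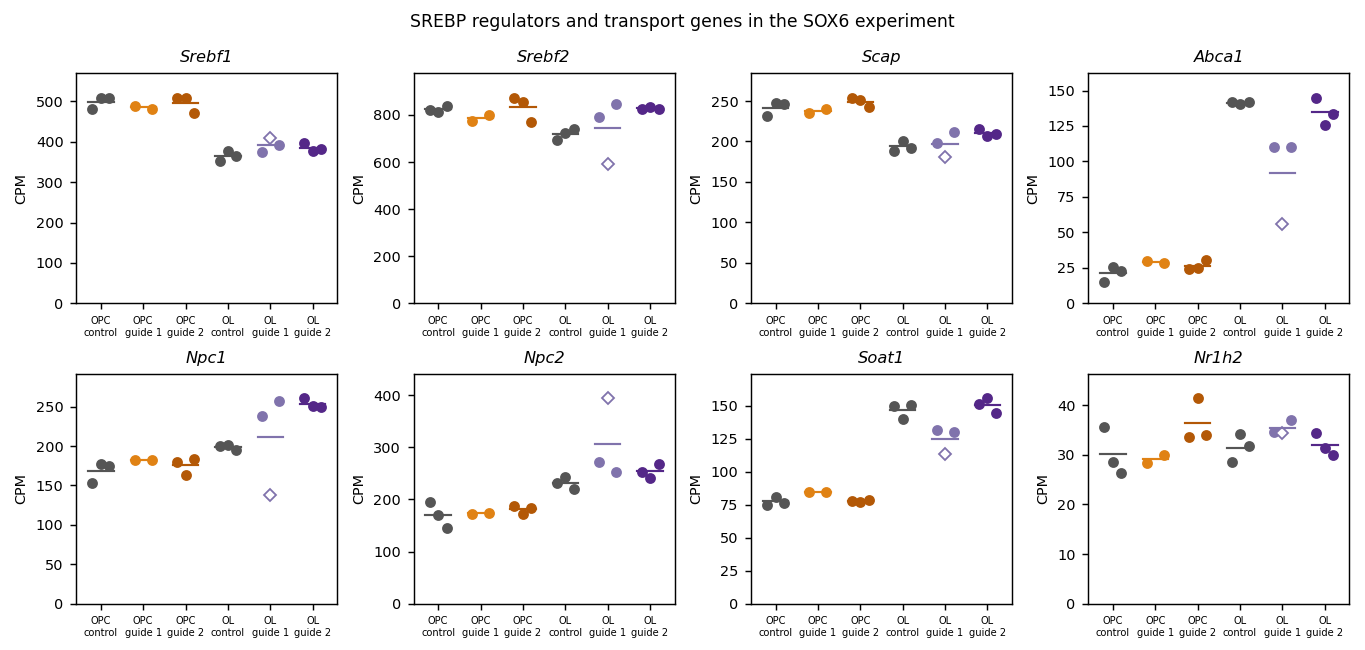
CPM of 3 SREBP regulators and 5 transport genes in the 17 libraries of the SOX6 experiment (points are libraries, bars are group means, the open diamond is OL guide 1 library B). The regulators sit lower in control OLs than in control OPCs, Abca1 and Soat1 sit higher in OLs, and library B is the lowest OL library for Srebf2, Scap, Abca1, Npc1 and Soat1.

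Cell markers moved beside the enzyme genes in targeted OLs. Of 6 myelin markers 3 rose (summed level 2019 to 2220 CPM in controls, 2506 to 2599 CPM with guide 1 and 2826 to 2955 CPM with guide 2). Of 4 markers of newly formed oligodendrocytes 3 fell (2569.9 to 2639 CPM in controls, 716 to 887 CPM with guide 1, 1040.3 to 1078 CPM with guide 2), as did 3 of 4 progenitor markers and 3 of 4 markers of dividing cells (295 to 301 CPM in controls, 125 to 166 CPM with guide 1, 135 to 137 CPM with guide 2). Of 7 astrocyte markers 1 rose, and their sum was 2283 to 2315 CPM in controls and 2767 to 3468 CPM in targeted cells. The part of these cell states in the change of the enzyme genes was not tested.

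The response to targeting was compared between stages in 1 fit. Stard4 responded more in OLs than in OPCs by 0.45 on the log2 scale (SE 0.0819, adjusted p = 0.0116), Cyp51 by 0.65 (SE 0.144, adjusted p = 0.0349) and Dhcr7 by 0.45 (SE 0.103, adjusted p = 0.04204). These 3 of 32 members were called, all higher, where 1.69% of 14352 genes were called (0.92% higher). The Stard4 call was lost in 1 of 23 alternatives, the length offset (which called 0 members), while Cyp51 was lost in 13 and Dhcr7 in 20. For Hmgcs1 (0.47, adjusted p = 0.0942), Mvd (0.44, 0.232) and Nsdhl (0.38, 0.18) the difference between stages did not pass the threshold. Leaving out single libraries gave between 1 and 6 members, with 6 without OL guide 1 library B and 1 without OPC control A or B, any targeted OPC library, any OL control, or OL guide 2 library A or C.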

How the data were processed

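Poly(A) RNA-seq was analysed from the tables the authors deposited. Per the submitters' processing notes, Salmon 0.14.1 and DESeq2 were used with build mm10, with no DESeq2 version in the sources used here. For the SOX6 experiment the authors deposited a table of estimated counts for each stage, by gene symbol, and they deposited TPM for all libraries. The authors also deposited tables of log2 ratios of control over targeted cells with adjusted p-values. TPM summed to between 77.6% and 79.6% of the full scale over the deposited symbols in the 23 libraries. The kit in the labels does not mark strand, so reads of genes that overlap on opposite strands are mixed.

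Estimated counts were rounded, filtered with filterByExpr (minimum count 10, minimum total 15), scaled by TMM and tested with edgeR 4.0.16 (quasi-likelihood, two-sided, Benjamini-Hochberg over all genes tested, threshold 0.05) in R 4.3.3. Control and both guides were fitted per stage, and both guides, averaged, were set against control. Printed CPM use TMM factors over all 17 libraries. Sorted cells have TPM alone, of unknown depth, and log2(TPM + 1) was tested with limma 3.58.1 where 3 or more libraries reached 1 TPM. These fold changes understate the change of low genes. DESeq2 1.42.0, other scalings, no filter, a length offset, single guides and left-out libraries were alternatives, and removal of a length trend was chosen after seeing the data. The tests were tried on simulated data. Columns are lettered and were matched to groups, not to replicate numbers.

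All 33 members could be named. Values in every library are given for called members whose higher group averaged 10 CPM or TPM or more, at most 8 per comparison with the largest change, and up to 4 further sterol genes were named by size of change. Other members' values were added after they were seen. The members, lists and rules were chosen with earlier results of these data known. Some sterol genes are not reported here. Promoter sequences are RefSeq's, build GRCm38.p6, and 27 of 33 members matched. Gene models for transcript length are GENCODE's of build GRCm38.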

Additional observations from a re-analysis of the deposited data

Results flagged for a closer look

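For 3 genes the response to SOX6 targeting differed between stages by the test of that difference itself (edgeR, both stages in 1 fit, Benjamini-Hochberg over 14352 genes). The log2 response of Cyp51 was 0.65 larger in OLs than in OPCs, that of Dhcr7 0.45 larger and that of Stard4 0.45 larger (adjusted p = 0.0349, 0.04204 and 0.0116). Of 23 alternatives, 13 lost the call of Cyp51, 20 that of Dhcr7 (other scalings and no filter among them) and 1 that of Stard4. In OLs alone the changes were 0.55, 0.44 and 0.41, and in OPCs they were -0.07, 0.02 and -0.02. In CPM 6 of 6 targeted OL libraries were above all controls for each gene. In TPM guide 1 library B was not, for Dhcr7 and Stard4. No group had more than 3 libraries, so the levels of single genes were not searched by Dixon's test for a far library. OL guide 1 library B, which stood apart by transcript length, is described with the results.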

How the results depend on the processing

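No paired analysis was possible because the columns are lettered and match no replicate number in the labels. For sorted OLs against sorted OPCs and for control OLs against control OPCs the count of members called stayed within 1.5 times its value of 22 and 17 in every alternative (19 to 21 and 15 to 17 with a library left out). In targeted OPCs it was 0 throughout. In targeted OLs, where 6 members were called, DESeq2 called 11, removal of a length trend (chosen after seeing the data) 10, guide 1 alone 10, guide 2 alone 2 and both stages in 1 fit 10. Leaving out 1 library there gave between 2 and 14. It gave 2 without OL control A, B or C, 3 without OL guide 2 library C and 14 without OL guide 1 library B, whose removal also widens the filter. The share of all genes called was 6.5% with both guides and all libraries, 4.92% with guide 1 alone, 4.44% with guide 2 alone and 16.9% without library B. For the other alternatives that share is not given here, so their larger counts may hold more calls over all genes. The 6 members called with both guides and all libraries were among those called by DESeq2, after removal of the length trend, with guide 1 alone and without library B. For the response in OLs minus that in OPCs, where 3 were called, DESeq2 called 5, the length offset 0, and leaving out 1 library gave between 1 and 6. No called value changed sign in any alternative run. Low counts limit Mylip, Abcg1, Nr1h3, Pmvk, Ebp, Insig1, Insig2 and Hsd17b7 in the unsorted cells, whose changes were mostly not detectable at this depth.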
